A study of Rattus norvegicus with 244 samples.

Results

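The S100 genes encode small calcium-binding proteins. The account here covers 6 of them, S100a11, S100a10, S100a4, S100b, S100a8 and S100a9, in the raphe and somatomotor cortex of rats after spinal cord injury. The arrays of the series, of types A, B and C, carried 9 probe sets annotated to these 6 genes, among 22 probe sets for 14 S100 genes and 26202 probe sets in all. S100a11 was taken because its signal differed between injured and sham raphe, and the other 5 were taken as its relatives. Each gene was represented by its probe set of highest mean signal: type C for S100a11, type B for S100a8 and type A for the other 4.

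RNA was measured on 244 arrays from 84 samples. The raphe is a brainstem region whose serotonin neurons send axons to the spinal cord, and the somatomotor cortex holds the neurons of the corticospinal tract. Naive rats had no operation, sham rats had a laminectomy alone, and injured rats had a moderate spinal cord injury. Injury was followed over 6 times: 4 h, 24 h and 7 d, then 14 d, 28 d and 3 months, with 4 injured and 2 sham samples per time in each region. Both regions also had 4 naive samples. One raphe sham sample at 3 months was not on type A, and 3 naive raphe samples were on type C. Sham samples at 30 min (1 of raphe and 2 of cortex, type A only) and 1 sham cortex sample at 72 h had no injured counterpart. The labels used here give no strain, sex, age, spinal level or number of animals in a sample. Nothing in them states that each sample is a different animal, so p-values measure only the spread between these samples. The source label of sham and naive raphe names the raphe magnus, while that of injured raphe names the raphe alone, so injury and a difference in what was dissected cannot be told apart.

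S100 proteins form dimers, and most of these open on binding calcium and then attach to partner proteins. S100a10 holds annexin A2 at the plasma membrane and binds plasminogen activator and plasminogen, S100a11 binds annexin A1, and S100a4 binds non-muscle myosin and is found in motile cells and in white matter astrocytes. S100b is made by astrocytes and by cells of the oligodendrocyte lineage, while S100a8 and S100a9 pair as calprotectin in neutrophils and monocytes.

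In the rat genome (GRCr8, from the RefSeq gene table) the genes of the A group lie on chromosome 2 and S100b on chromosome 20. S100a11 (chr2:181875132-181880542) lies next to S100a10 (chr2:181904454-181913101). S100a4 (chr2:178388529-178390838), S100a8 (chr2:178464095-178465223) and S100a9 (chr2:178487941-178490622) lie in another part of the same chromosome, and S100b is at chr20:12372345-12381159. The 250 bases before the start that the RefSeq promoter table uses are shown for 4 of the genes because S100a11 and relatives that were read on the same samples can then be compared at the promoter. For S100b that start lies inside the span of the gene given above, so its window overlaps the gene. The promoter table had no entry for S100a10 and S100a8. Capitals mark the TATA-box motif TATAAA and the Sp1-binding motif GGGCGG, on either strand.
S100a11, chr2:181874882-181875131, plus strand: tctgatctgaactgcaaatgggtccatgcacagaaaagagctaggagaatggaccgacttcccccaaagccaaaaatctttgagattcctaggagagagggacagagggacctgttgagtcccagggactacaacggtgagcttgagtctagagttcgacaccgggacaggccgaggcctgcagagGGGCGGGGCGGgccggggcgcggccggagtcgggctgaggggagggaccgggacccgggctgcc
S100a4, chr2:178388279-178388528, plus strand: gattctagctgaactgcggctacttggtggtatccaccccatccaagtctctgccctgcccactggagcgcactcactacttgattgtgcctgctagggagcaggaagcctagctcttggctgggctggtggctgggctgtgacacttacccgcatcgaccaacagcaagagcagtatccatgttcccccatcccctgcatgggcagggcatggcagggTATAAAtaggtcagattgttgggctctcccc
S100a9, chr2:178490623-178490872, minus strand: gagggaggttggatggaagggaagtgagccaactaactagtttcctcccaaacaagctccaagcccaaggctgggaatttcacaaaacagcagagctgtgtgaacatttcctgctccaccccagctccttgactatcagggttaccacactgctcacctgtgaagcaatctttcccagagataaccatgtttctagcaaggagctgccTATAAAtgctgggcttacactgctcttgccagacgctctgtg
S100b, chr20:12381082-12381331, minus strand: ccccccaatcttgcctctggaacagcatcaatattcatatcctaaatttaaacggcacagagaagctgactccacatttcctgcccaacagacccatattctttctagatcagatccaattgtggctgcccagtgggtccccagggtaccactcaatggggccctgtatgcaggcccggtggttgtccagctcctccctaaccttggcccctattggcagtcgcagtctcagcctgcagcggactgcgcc
The promoter of S100a11 held GGGCGG at 2 overlapping places, and those of S100a4 and S100a9 each held 1 TATAAA. None of the 4 held TGANTCA, a sequence bound by AP-1, and S100b held none of the 3. Over all 33469 rat promoters of this length, 12.9% held TATAAA, 30.5% GGGCGG and 6.34% TGANTCA, both strands searched. G and C made up 62.0% of the S100a11 window and 50.4% of that of S100a9.

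Values are deposited signals, scaled by the authors per array, and differences are of log2(signal + 32) with their standard error. Tests in a region covered probe sets that read above the 40th percentile of the array in 4 or more of its arrays. S100a10 exceeded it on 39 of 40 raphe and 43 of 43 cortex arrays, and S100a4 and S100b exceeded it on all 40 and 43. S100a11 exceeded it on 27 of 39 raphe arrays (21 of 24 injured, 3 of 12 sham and 3 of 3 naive) and on 16 of 41 cortex arrays. In the raphe it thus passed the filter mainly through the injured arrays. S100a8 exceeded the percentile on 9 of 40 raphe and 21 of 41 cortex arrays. S100a9 exceeded it on 0 of 40 raphe and 0 of 43 cortex arrays and was not tested, leaving 5 tested genes. A low signal here has no lower bound set by a detection call, so the size of a difference against it depends on the 32 that was added.

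Several samples stood apart from the others of their label. Forebrain markers summed to 35428 on type B in raphe sham replicate 1 at 3 months, against 1048 to 2252 in the other raphe samples and 21461 to 37294 in the cortex. In cortex sham replicate 1 at 3 months brainstem markers summed to 12756 on type A, against 1313 to 3219 in the other cortex samples and 12056 to 18606 in the raphe. The first sample thus went against its region label, with brainstem markers of 1380 on type B against 6657 to 11926 in the other raphe samples. The second carried markers of both regions, since its forebrain markers summed to 16347 on type A, against 40264 to 67571 in the other cortex samples and 634 to 1578 in the raphe. The ratio of the 3′ to the 5′ actin probe set was 29.1 to 93.3 on the arrays of raphe injured replicate 1 at 4 h. The 5th percentile of the signal was 44.8 to 66.1 on cortex sham replicate 2 at 14 d and 29.8 to 35.7 on cortex injured replicate 2 at 7 d. Several results that rest on these 5 samples are given with and without them.

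S100a11 was higher in injured than in sham raphe by 1.23 ± 0.17 on the log2 scale as the mean over 6 times (24 injured and 12 sham samples). This contrast chose the gene, so the value is a description. Its rank of 7 by size among the 18716 probe sets tested in the raphe is bound up with that choice and is no evidence. Of the injured samples, 20 of 24 lay above the mean of the sham samples of their time. The value was 1.27 without the 5 doubted samples, and it lay between 1.14 and 1.31 when any single sample was left out.

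The naive raphe samples gave S100a11 signals of 301, 378 and 420. Sham samples gave 332 and 569 at 4 h, 196 and 404 at 24 h, 28 and 53 at 7 d, 144 and 212 at 14 d, 62 and 157 at 28 d, and 27 and 37 at 3 months. Injured samples gave 111, 259, 340 and 484 at 4 h, 275, 348, 415 and 468 at 24 h, and 215, 343, 346 and 431 at 7 d. The sham samples thus spanned the naive level at 4 h and lay far under it at 7 d and 3 months, while most injured samples stayed near the naive level. Injured samples gave 278, 329, 404 and 465 at 14 d, 409, 447, 492 and 570 at 28 d, and 122, 380, 412 and 520 at 3 months. All injured samples lay above both sham samples at 7 d, 14 d, 28 d and 3 months, and the groups overlapped at 4 h and 24 h. In bulk tissue, fewer cells of a type and less RNA per cell cannot be told apart.

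By time, injured minus sham raphe was -0.65 at 4 h, 0.35 at 24 h, 2.32 at 7 d, 0.93 at 14 d, 1.93 at 28 d and 2.47 at 3 months, each with a standard error of 0.42. At 28 d the value was 1.43 or 2.44 when one or the other sham sample was left out, and at 3 months it was 2.36 without the doubted sham sample. Sham raphe lay below naive raphe by 1.28 on the log2 scale (-1.28 ± 0.31, or -1.26 without the doubted samples), with 2 of 12 sham samples above the naive mean. Injured minus naive raphe was -0.05 ± 0.30. Sham raphe thus lay below both the naive and the injured mean. These values share the samples that chose the gene and carry no test.

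Ordered by mean log2(signal + 32), S100a11 in the raphe ran from injured at 28 d (8.99 ± 0.19, SD, n = 4) through sham at 4 h (8.87 ± 0.51, n = 2), injured at 24 h (8.65 ± 0.31) and naive (8.63 ± 0.23, n = 3). The other injured groups followed, at 8.62 for 14 d, 8.48 for 7 d, 8.46 for 3 months and 8.22 for 4 h, with sham at 24 h among them at 8.30. The lowest were sham at 14 d (7.69 ± 0.34), 28 d (7.06 ± 0.71), 7 d (6.16 ± 0.34) and 3 months (5.99 ± 0.16), each of 2 samples. Only the step from sham at 28 d to sham at 7 d was wider than the larger SD of the 2 neighbours. Over the 6 times the injured group means of S100a11 thus ran from 8.22 to 8.99 and the sham group means from 5.99 to 8.87. These samples chose the gene, so no test of change over time is read for it in the raphe.

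**Figure D1:**
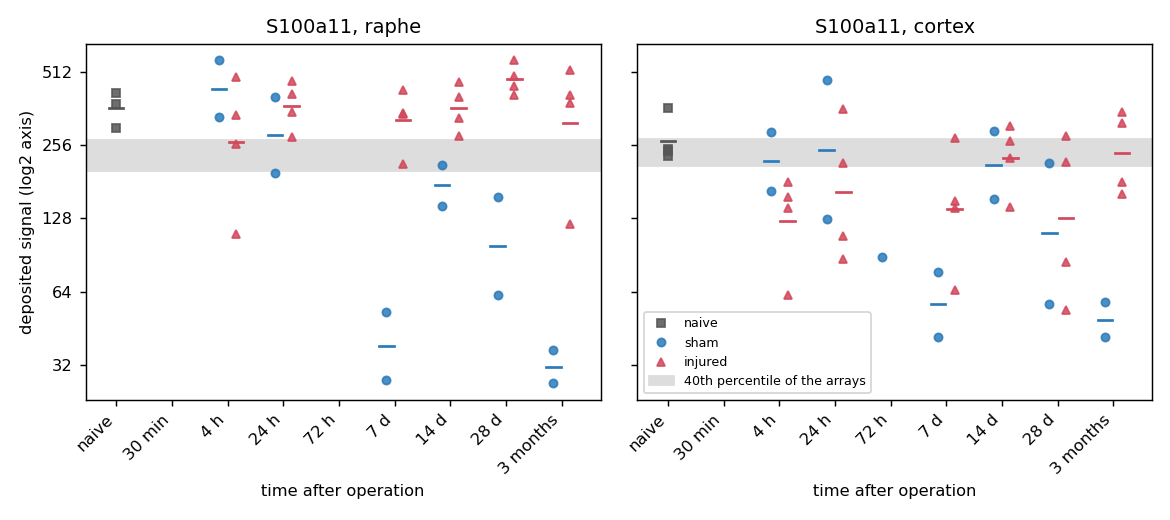
Deposited S100a11 signal (log2 axis) of each sample against the time after the operation, in the raphe (left) and the cortex (right). Bars are group means taken on the log2 scale, and the grey band is the range of the 40th percentile over the arrays. In the raphe both sham samples at 7 d and at 3 months lie between 27 and 53, under all injured samples of those times, while in the cortex the groups overlap at every time but 3 months.

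The cortex samples had no part in the choice of S100a11, though the labels do not state whether they came from the same rats as the raphe samples. There the injured minus sham difference was 0.30 ± 0.22 (95% interval -0.14 to 0.74, limma adjusted p = 0.639), with 14 of 24 injured samples above the sham mean of their time. None of the 5 tested S100 genes passed in this comparison, in which 0.133% of probe sets passed. The raphe difference exceeded the cortex difference by 0.93 ± 0.28 in S100a11, given without a test because it includes the raphe contrast.

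Naive cortex gave S100a11 signals of 231, 242, 246 and 363. Sham cortex gave 166 and 290 at 4 h, 127 and 473 at 24 h, 89 at 72 h, 42 and 77 at 7 d, 154 and 293 at 14 d, 57 and 217 at 28 d, and 42 and 58 at 3 months. Both sham samples were low at 7 d and at 3 months, with one as low at 28 d, and most of the cortex signals were under the 40th percentile of 211 to 270. Injured cortex gave 62, 141, 157 and 180 at 4 h, 87, 109, 216 and 358 at 24 h, and 65, 141, 151 and 274 at 7 d. Later it gave 142, 227, 265 and 305 at 14 d, 54, 85, 218 and 278 at 28 d, and 161, 180, 316 and 351 at 3 months. The injured samples lay above both sham samples at 3 months and overlapped them at the other 5 times.

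At 3 months S100a11 in the cortex was 1.74 ± 0.53 higher in injured than in sham samples (95% interval 0.66 to 2.81), which missed the threshold (adjusted p = 0.0707). One of its 2 sham samples was doubted, and without the doubted samples the value was 1.88 (adjusted p = 0.406). The other times gave -0.66 at 4 h, -0.50 at 24 h, 0.97 at 7 d, 0.08 at 14 d and 0.17 at 28 d (adjusted p from 0.565 to 1.00). Those at 24 h, 14 d and 28 d changed sign when single samples were left out. None of the 5 genes passed at any of the 6 times, against 0.016% of probe sets at 4 h, 0.0426% at 24 h, 0.368% at 7 d, 1.81% at 14 d, 0% at 28 d and 2.47% at 3 months.

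Sham cortex was 0.87 below naive cortex in S100a11 (-0.87 ± 0.35, 95% interval -1.59 to -0.15), with 3 of 12 sham samples above the naive mean, and missed the threshold (adjusted p = 0.258). Injured cortex was -0.57 ± 0.33 against naive (adjusted p = 0.39), and the injured time course in the cortex gave an adjusted p of 0.661. Group means of S100a11 in the cortex ran from naive (8.22 ± 0.27, SD, n = 4) to sham at 7 d (6.49 ± 0.40) and 3 months (6.35 ± 0.20, n = 2 each). Neighbours in that order lay within the larger of their SDs, apart from the step to sham at 7 d from the 1 sham sample at 72 h (6.92). Between the regions, naive raphe was 0.40 ± 0.43 above naive cortex in S100a11 (adjusted p = 0.62).

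In injured minus sham raphe the 4 tested relatives of S100a11 lay between -0.25 and 0.12. Of the 5 tested genes 1 was called in injured against sham raphe, the gene chosen on it, beside 0.946% of all probe sets, and nothing is read from that count. None of the 4 tested relatives passed, and with so small a share of all probe sets called nothing is read from that either. In sham against naive raphe 0 of the 4 relatives were called, beside 1.35% of all probe sets. In injured against naive raphe 0 of the 4 were called, beside 3.05% of all probe sets.

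S100a10, which carries annexin A2 to the membrane, gave raphe signals of 809 to 1194 in naive samples (median 1061), 587 to 1216 in sham samples (median 850) and 34 to 1225 in injured samples (median 856). The lowest of them, 34, was 1 injured sample at 7 d whose group otherwise read 917, 993 and 1120. Injured and sham samples overlapped across nearly their whole range. Injured minus sham raphe was -0.12 ± 0.26 (95% interval -0.64 to 0.40, adjusted p = 0.877), and 0.04 without the sample at 34. In the cortex S100a10 read 419 to 1065 in naive, 369 to 948 in sham and 414 to 1320 in injured samples, with a difference of 0.19 ± 0.15 (adjusted p = 0.673).

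S100a4, the myosin-binding member, gave raphe signals of 336 to 535 in naive samples (median 395), 226 to 394 in sham samples (median 287) and 140 to 1747 in injured samples (median 294). The highest, 1747, came from the doubted injured sample at 4 h, where the other 3 read 249, 259 and 324. Sham and injured raphe thus both centred under naive raphe, and none of 11 sham samples lay above the naive mean. Sham minus naive was -0.49 ± 0.29 (adjusted p = 0.458) and injured minus naive -0.36 ± 0.26 (adjusted p = 0.523). Without the 5 doubted samples the latter was -0.47 and passed (adjusted p = 0.039). Leaving out raphe injured replicate 1 at 4 h alone gave -0.47 as well (adjusted p = 0.0412). Injured minus sham raphe was 0.12 ± 0.18 (95% interval -0.25 to 0.49, adjusted p = 0.81). In the cortex S100a4 read 263 to 498 in naive, 167 to 519 in sham and 149 to 397 in injured samples, with an injured minus sham difference of -0.13 ± 0.12 (adjusted p = 0.715).

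**Figure D2:**
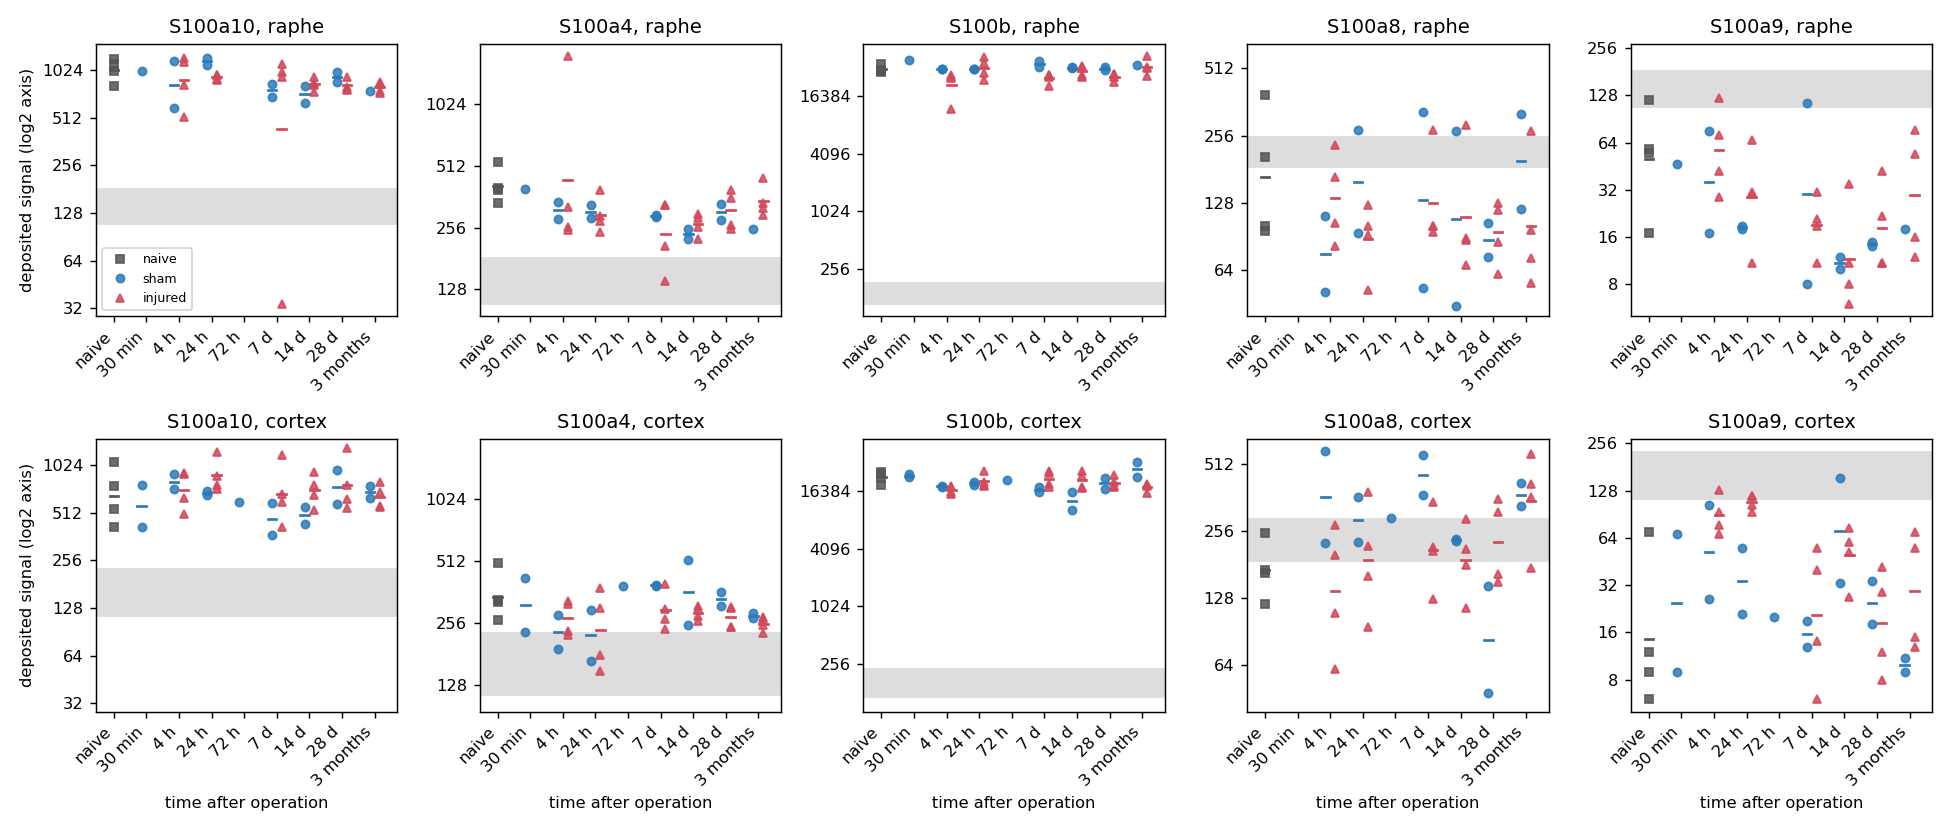
Deposited signals (log2 axis, one scale per gene in both regions) of S100a10, S100a4, S100b, S100a8 and S100a9 in each raphe (top) and cortex (bottom) sample against the time after the operation. Bars are group means on the log2 scale and grey bands the range of the 40th percentile over the arrays. Injured and sham samples overlap at most times, all S100a9 samples lie under the 40th percentile of their array, and single samples stand apart in S100a10 (34 at 7 d) and S100a4 (1747 at 4 h).

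S100b, the glial member, gave raphe signals of 29609 to 36041 in naive samples (median 30397), 30537 to 39126 in sham samples (median 32515) and 12082 to 42905 in injured samples (median 27436). At 4 h the injured samples read 12082, 25471, 26255 and 27684, against 31550 and 31857 in sham. At 7 d they read 21036, 26250, 27053 and 27467, against 33475 and 38498. All injured samples lay below both sham samples at these times and at 28 d, and the groups overlapped at the other 3. Over the 6 times injured minus sham raphe was -0.25 ± 0.11 (95% interval -0.47 to -0.03), with 5 of 24 injured samples above the sham mean. It missed the threshold (p = 0.0285, adjusted p = 0.263), and was -0.20 (adjusted p = 0.142) without the doubted samples. With array quality weights it was -0.24 and passed (adjusted p = 0.0463). A second S100b probe set differed the other way, by 0.52 ± 0.33 (adjusted p = 0.484), and exceeded the 40th percentile on 17 of 40 raphe and 6 of 43 cortex arrays.

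In the cortex S100b read 19079 to 25962 in naive samples, 10487 to 33617 in sham samples and 15397 to 26950 in injured samples, and injured minus sham was 0.08 ± 0.08 (adjusted p = 0.776). At 14 d the sham samples read 10487 and 16123 and the injured 17743, 18370, 23933 and 26889, a difference of 0.72 ± 0.21 (95% interval 0.29 to 1.14, adjusted p = 0.0615). At 3 months the sham samples read 23182 and 33617 and the injured 15856, 18564, 19262 and 19530, a difference of -0.61 ± 0.21 (95% interval -1.04 to -0.19, adjusted p = 0.0983). The groups did not overlap at either time, in opposite directions, and each rested on 1 doubted sham sample. Without the doubted samples the values were 0.41 (adjusted p = 0.996) at 14 d and -0.35 (adjusted p = 0.783) at 3 months. With the undoubted sham sample left out in its place, they were 1.03 (adjusted p = 0.00497) and -0.88 (adjusted p = 0.0293). The injury difference between the regions in S100b was -0.32 ± 0.13 (adjusted p = 0.485). The second S100b probe set went the other way in the cortex over the 6 times (-0.35 ± 0.18) and at 14 d (-0.84 ± 0.44). It also did so between the regions (0.87 ± 0.38), while at 3 months it gave -0.08. None of these passed (limma adjusted p of 0.294 or more).

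S100a8 gave raphe signals of 94.6 to 389 in naive samples (median 153), 44.2 to 326 in sham samples (median 107) and 52.4 to 285 in injured samples (median 98.2), mostly under the 40th percentile. Injured minus sham raphe was -0.15 ± 0.24 (95% interval -0.64 to 0.35, adjusted p = 0.835). In the cortex it read 120 to 251 in naive samples (median 168), 48.3 to 582 in sham samples (median 293) and 60.7 to 566 in injured samples (median 209). Sham cortex was 0.58 ± 0.32 above naive (adjusted p = 0.434), with 10 of 12 samples above the naive mean, and injured minus sham was -0.31 ± 0.20 (adjusted p = 0.571). The cortex times disagreed in sign: -1.19 ± 0.48 at 4 h (sham 225 and 582, injured 61, 109, 199 and 272) and 1.14 ± 0.48 at 28 d (sham 48 and 144, injured 151, 163, 312 and 354). Neither passed (adjusted p = 0.51 and 1.00).

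S100a9, the partner of S100a8, stayed under the 40th percentile on every array. Its medians were 56.3 in naive, 17.5 in sham and 25.4 in injured raphe, and 10.4, 20.8 and 55.0 in the cortex. In the cortex at 24 h the injured samples read 94, 103, 118 and 119 and the sham samples 21 and 55. At 3 months they read 13, 15, 55 and 70 and the sham samples 9 and 11. The injured samples lay above both sham samples at these times and overlapped them at the other 4, all at signals under the 40th percentile.

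Neutrophil markers were at hand beside this pair. Of 7 on the arrays, 3 in the raphe (Mmp8, Mmp9 and RatNP-3b) and 4 in the cortex (Defa5, Lcn2, Mmp8 and RatNP-3b) did not exceed the 40th percentile on 4 arrays. Injured against sham called 0 of the 4 tested in the raphe, beside 0.946% of all probe sets. In the cortex it called 0 of the 3 tested, beside 0.133%. In sham against naive raphe 1 of 4 was called, beside 1.35% of all probe sets. It was Defa5, a defensin, which was higher in sham than in naive raphe by 1.15 ± 0.30 (adjusted p = 0.0437).

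**Figure D3:**
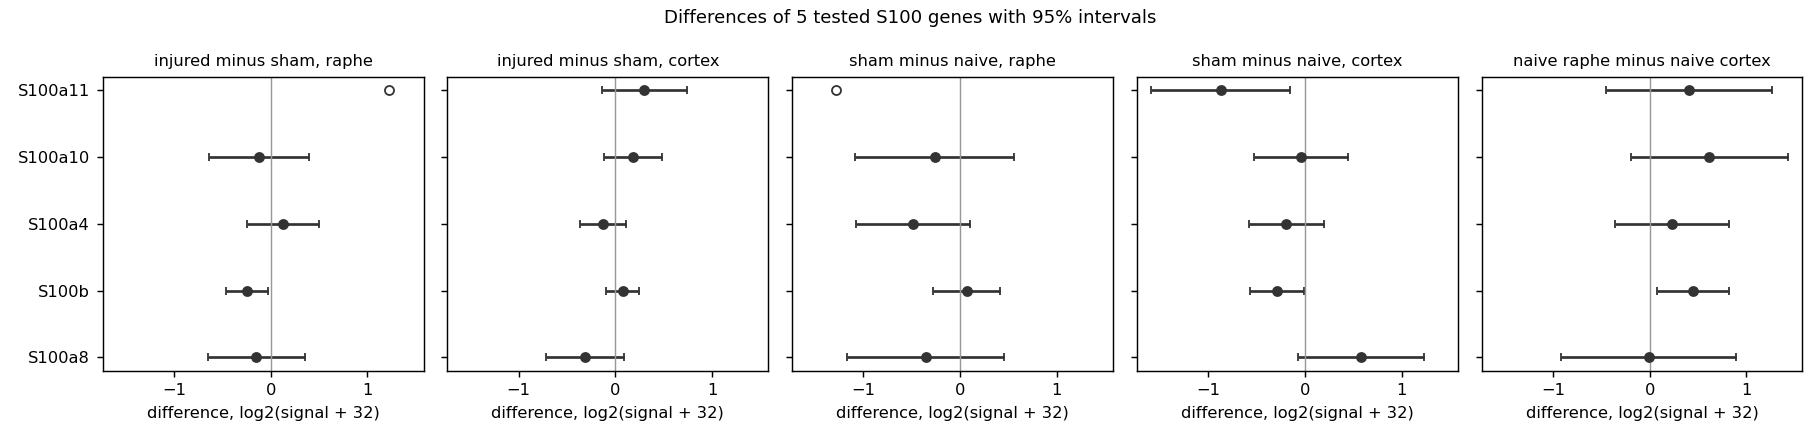
Differences of log2(signal + 32) of the 5 tested S100 genes in 5 comparisons, as points with 95% intervals. The open points are S100a11 in raphe comparisons that share the samples that chose it and have no interval. S100a11 lies at 1.23 in injured minus sham raphe and at -1.28 in sham minus naive raphe, while the relatives lie within 0.49 of 0 in both.

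Sham against naive cortex called 0 of 5 S100 genes, where 0.49% of probe sets were called, and injured against naive cortex called 0 of 5, where 2% were. S100a10 (-0.04 ± 0.24 and 0.15 ± 0.22), S100a4 (-0.19 ± 0.19 and -0.32 ± 0.18) and S100b (-0.29 ± 0.14 and -0.21 ± 0.13) each gave adjusted p of 0.354 or more. In the raphe, sham minus naive was -0.26 ± 0.40 for S100a10, 0.07 ± 0.17 for S100b and -0.36 ± 0.40 for S100a8. A limma F test of change over the 6 injured times called 0 of the 4 relatives in the raphe, where 0.486% of probe sets were called. In the cortex it called 0 of 5, where 1.1% of probe sets were called. The difference between the regions in injured minus sham was called for 0 of the 4 relatives, beside 0.0206% of probe sets.

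Between naive raphe and naive cortex 0 of 5 S100 genes were called, where 14.2% of probe sets were. S100b came nearest, at 0.45 ± 0.18 higher in the raphe (95% interval 0.08 to 0.82, adjusted p = 0.0992). It passed without the doubted samples (0.45, adjusted p = 0.0239), without raphe injured replicate 1 at 4 h alone (adjusted p = 0.0363) and with array quality weights (0.44, adjusted p = 0.0317). S100a10 was 0.62 ± 0.41 higher in the raphe (adjusted p = 0.367), S100a4 0.23 ± 0.30 and S100a8 -0.01 ± 0.45. Oligodendrocyte markers moved with this comparison, with 8 of 11 called, all higher in the naive raphe, beside the 14.2% of all probe sets, and a median of 1.20, beside -0.00 over all probe sets. Their part in the S100b difference was not tested.

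Other S100 genes were listed to set the members in their family. Of 14 listed genes 7 were on the arrays and 5 were tested. None was called between injured, sham and naive samples in either region, beside 0.133% to 3.05% of all probe sets, depending on the comparison. S100a6, which is found in fibroblasts and some neurons, was nearest in sham against naive raphe, at -0.88 ± 0.26 (adjusted p = 0.0785), with 1 of 12 sham samples above the naive mean. Between naive regions 2 of 5 were called, beside 14.2% of all probe sets. Naive raphe exceeded naive cortex in S100a16 by 0.72 ± 0.17 (adjusted p = 0.00122) and in S100a1, a member known from muscle and neurons, by 0.67 ± 0.22 (adjusted p = 0.032).

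The annexin list held the partners of S100a10 and S100a11. Of 12 on the arrays 11 were tested, and 0 were called in injured against sham, sham against naive or injured against naive samples of either region. Beside them, 0.133% to 3.05% of all probe sets were called, depending on the comparison. The median injured minus sham difference was -0.03 in the raphe and -0.06 in the cortex, beside -0.00 over all probe sets in both. Between naive regions 3 of 11 were called, beside 14.2% of all probe sets: Anxa2, the partner of S100a10, was 1.497 ± 0.25 and Anxa6 1.15 ± 0.24 higher in the raphe, and Anxa11 differed by -1.89 ± 0.31.

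The list of S100 receptors and effectors held surface receptors, the plasminogen system and channels that S100a10 carries. The receptors Ager, Tlr4 and Cd36 did not exceed the 40th percentile on 4 arrays of either region. In injured against sham raphe 1 of 12 was called, beside 0.946% of all probe sets. It was Plau, the urokinase plasminogen activator, which fell by 0.58 on the log2 scale (-0.58 ± 0.11, adjusted p = 0.00871). Against naive cortex, injured cortex rose in Plat, the tissue plasminogen activator, by 0.80 ± 0.20 (adjusted p = 0.0359) and fell in Bsg, described in human cells as a receptor for S100A9, by 0.40 (-0.40 ± 0.11, adjusted p = 0.0407). These were 2 of 13 tested, beside 2% of all probe sets. Between naive regions 2 of 13 were called, beside 14.2% of all probe sets, both higher in the raphe: Plat by 0.88 ± 0.27 and Ctsb by 0.49 ± 0.17. That share is near the background. Plau thus passed in the contrast that chose S100a11, in the opposite direction.

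Summed marker genes of neighbouring tissue read lower in sham raphe than in naive raphe. The 17 meninges and fibroblast genes summed to 24835 to 35818 in naive raphe, 14637 to 22305 in sham raphe and 14976 to 55891 in injured raphe, so sham and naive samples did not overlap. The medians were 32664 in naive, 17959 in sham and 20554 in injured raphe, so the injured median lay nearer to sham. Injured minus sham was above 0 in 15 of 17, with a median of 0.37, beside -0.00 over all probe sets. In that comparison 0 of 17 were called, beside 0.946% of all probe sets. Sham minus naive was above 0 in 2 of 17, with a median of -0.72, and Tagln (-1.18 ± 0.28, adjusted p = 0.0256) and Slc6a13 (-1.32 ± 0.35, adjusted p = 0.0487) fell, 2 of 17 called beside 1.35% of all probe sets. Blood cell genes summed to 115423 to 133196 in naive, 37800 to 110661 in sham and 47041 to 95089 in injured raphe. Of these, 5 of 6 fell in sham against naive raphe, beside the same 1.35%, among them Hba-a1 (-0.88 ± 0.16) and Hbb-b1 (-0.87 ± 0.18). In injured against sham raphe 0 of 6 were called, beside 0.946% of all probe sets. All injured samples lay below all naive samples in the blood cell sum. In the cortex the meninges sums overlapped, at 21463 to 23598 in naive, 18663 to 31206 in sham and 21537 to 30097 in injured samples. The part of these markers in the S100a11 differences was not tested.

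**Figure D4:**
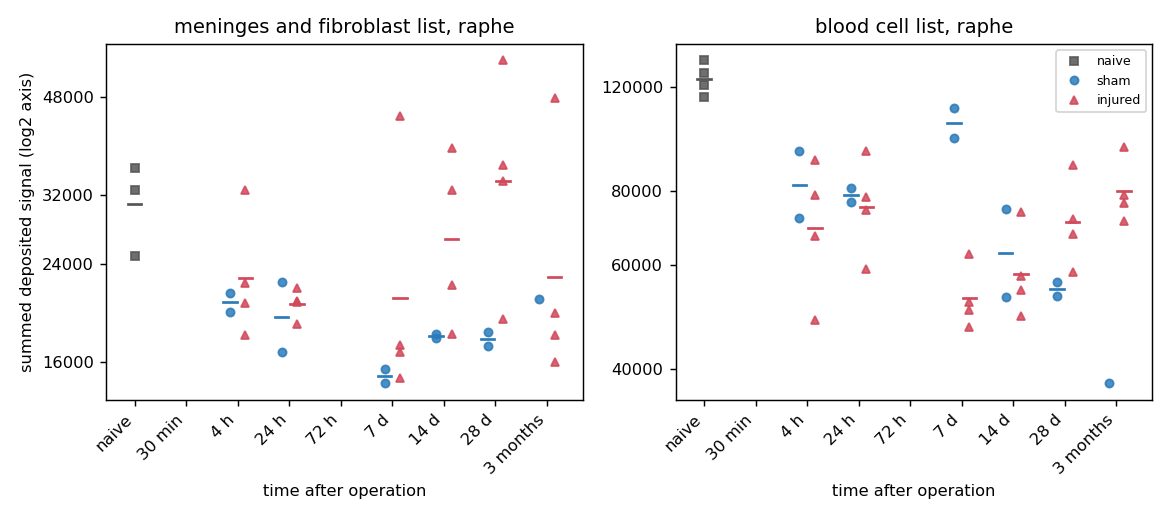
Summed deposited signal (log2 axis) of the 17 meninges and fibroblast genes (left) and the 6 blood cell genes (right) in each raphe sample that has the array types a list needs, against the time after the operation. Bars are means on the log2 scale. Naive samples lie above all sham samples in both sums, and injured samples spread from 14976 to 55891 in the first.

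Among glial lists, 0 of 14 tested microglia and macrophage genes were called in injured against sham raphe, beside 0.946% of all probe sets. In injured against sham cortex 1 of 14 was called, beside 0.133% of all probe sets, with a list median of 0.08. It was Aif1, a microglial actin-binding protein, which rose by 0.63 ± 0.10 (adjusted p = 0.0058). Astrocyte genes, the group that S100b belongs with, gave 0 of 13 called in injured against sham in either region, with medians of -0.10 in the raphe and -0.05 in the cortex.

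The probe sets most like S100a11 across the 39 raphe arrays of type C were found by Pearson r of log2(signal + 32), among 4519 tested probe sets with a single symbol. They were Zfp330 (0.79), Cnih4 (0.73), Dhrs4 (0.72), Sec23b (0.65), Dnajc19 (0.65), Pomt2 (0.63), Tmbim4 (0.63), Timm10 (0.60), Pdk4 (0.60) and Ifitm3 (0.60). The median over all candidates was 0.05 and the 99th percentile 0.53. Across the 41 cortex arrays the same 10 gave -0.17 to 0.49, the highest for Dhrs4. The arrays share the sham and injured samples that chose S100a11, so these values only describe.

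Within groups, the deviations of 8 gene pairs from their group means were compared in each region, 16 correlations in all. The permutation shuffled deviations over all samples of a region, although those of one group sum to 0 and so depend on one another. Its p-values are therefore likely too small. One passed, between S100b and Mbp, a myelin gene, in the raphe (Pearson r = 0.608, permutation p = 9.0e-05, adjusted p = 0.00144, Spearman rho = 0.689, adjusted p = 0.00032, n = 37). It was 0.634 without the 2 samples farthest from the median of S100b and 0.709 without the doubted samples. In the cortex the pair gave r = 0.164 (permutation adjusted p = 0.71). S100a8 with S100a9 gave r = 0.350 in the raphe (permutation adjusted p = 0.165), S100a10 with Anxa2 gave 0.339 and S100a10 with S100a4 gave 0.0662. S100a11 with S100a4 gave -0.370 (permutation adjusted p = 0.165), and 0.087 without the doubted samples.

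**Figure D5:**
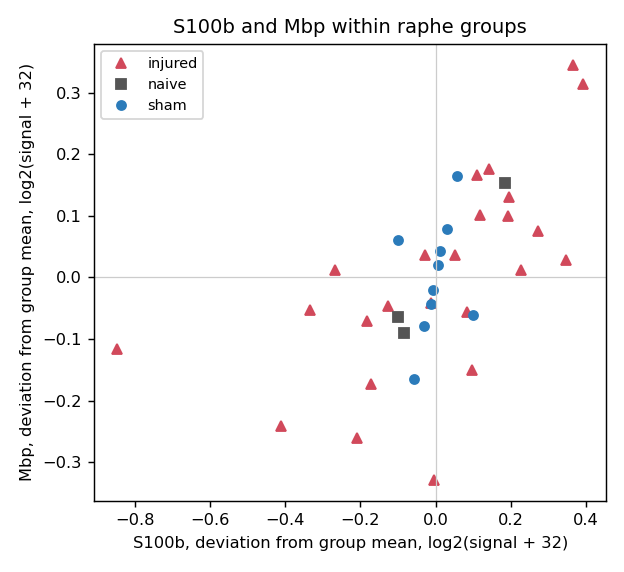
Deviation of Mbp from its group mean against that of S100b in the raphe samples read for both genes (axes in log2(signal + 32)), 1 point per sample. Samples with higher S100b than their group tend to have higher Mbp (r = 0.608, n = 37).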

How the data were processed

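The deposited intensity values are linear signals, 1 for each probe set, and were scaled array by array by the authors. The trimmed mean (2 percent) of each of the 244 arrays lay between 800.5 and 801.3. The software used was not given in the sources used here. Groups came from the titles, also for the type A arrays of 2 cortex injured samples at 24 h and 1 raphe sham sample at 30 min, whose descriptions give other times. Probe sets were named from the platform annotation, and those with several symbols or none (391 and 7633) were not named.

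Group means of log2(signal + 32) were estimated by limma 3.58.1 (R 4.3.3) within each array type and region, and for comparisons between regions over both. All groups shared a spread. Probe sets above the 40th percentile on at least 4 arrays were tested (18716 in the raphe, 18769 in the cortex, 19453 over both), with Benjamini-Hochberg adjustment over the 3 array types together and a threshold of 0.05, two-sided. The fit was tested on simulated data. Correlations used 100000 resamples, and 2 of 10 planned pairs were not run.

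Named genes were the 6 members, up to 4 genes of each list with the smallest p, and the 10 probe sets most like S100a11. The members and lists were chosen with earlier results of these data known. The number of arrays limits the precision.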

Additional observations from a re-analysis of the deposited data

Results flagged for a closer look

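Of 83 groups of 4 samples tested for a sample far from the rest, 8 held one, where chance gives about 1 in 20. In the raphe, S100a10 read 34.4 in injured replicate 4 at 7 d (others 917 to 1120) and S100a4 read 1747 in injured replicate 1 at 4 h (others 249 to 324). The same sample at 4 h, which had the high actin ratio, read 12082 for S100b (others 25471 to 27684). S100b also read 21036 in injured replicate 3 at 7 d (others 26250 to 27467). S100a8 read 285 in injured replicate 4 at 14 d (others 67.5 to 89.1) and 271 in injured replicate 2 at 7 d (others 94.4 to 101). In naive cortex, S100a11 read 363 in replicate 2 (others 231 to 246) and S100a9 read 69.9 in replicate 3 (others 6.10 to 12.1).

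In 4 cases every injured sample of the raphe lay on one side of its sham mean and every injured sample of the cortex on the other. The difference was not tested. The cases were picked from a search over the S100 genes and the times with injured and sham samples. How often such cases arise by chance, or among all probe sets, was not worked out, so nothing is read from their number. S100a10 at 24 h was -0.32 in the raphe and 0.36 in the cortex, -0.68 apart. S100a4 at 3 months was 0.40 and -0.11, 0.52 apart, with 1 raphe sham sample and 1 doubted cortex sham sample. S100b at 7 d was -0.50 and 0.38, -0.88 apart, with 1 doubted cortex injured sample. S100a8 at 4 h was 0.63 and -1.19, 1.82 apart, with 1 doubted raphe injured sample. The distances between the regions were not recomputed without the doubted samples.

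Of the sham times that had no injured samples, S100b read 39126 in the raphe sample at 30 min, above the naive 29609 to 36041. S100a8 read 293 in the cortex sample at 72 h, above the naive 120 to 251.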

How the results depend on the processing

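Under 11 settings other than leaving out 1 sample, 692 of 734 recomputed values were classed as unchanged. For tested differences and correlations this meant the same direction and side of the threshold, and for F tests the same side. Counts had only to stay close, and S100a11 values without a test had to move by less than their residual SD. S100a11 in injured minus sham raphe ran from 0.80 (a larger added constant) to 1.55 (a smaller one). Counts of S100 genes called in the raphe include S100a11, from which nothing is read. The number called became 0 in injured against sham raphe, 0 in sham against naive raphe and 1 in the cortex at single times (S100b at 14 d) with a 60th percentile filter, which left S100a11 untested. In sham against naive raphe it also became 0 with the larger constant, with the replicate block and with adjustment within each array type. With array weights it became 2 in injured against sham raphe and 1 between naive regions (S100b in both). Without the doubted samples it became 1 in injured against naive raphe (S100a4) and 1 between naive regions (S100b), and 3 correlations passed in place of 1. The 2 added were S100a10 with S100a4 in the raphe (r = 0.511, permutation adjusted p = 0.0273, but r = 0.0441 without the 2 farthest samples) and S100a8 with S100a9 in the raphe (r = 0.421, permutation adjusted p = 0.0485). Both p-values are likely too small, since deviations within a group depend on one another.

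Some differences changed sign, not all of them small. S100b in sham against naive raphe became -0.0093 and S100a8 between naive regions 0.041 with quantile normalization, and S100a8 between naive regions 0.022 with the larger constant. S100a10 in injured against sham raphe became 0.029 with array weights and 0.050 with the replicate block, and S100a4 in injured against sham cortex 0.0083 with the block. Without the doubted samples S100a11 in the cortex at 14 d became -0.33, and r became -0.025 for S100a10 with Anxa2 in the cortex, -0.00357 for S100a10 with S100a11, 0.087 for S100a11 with S100a4 and 0.019 for S100a8 with Lcn2 in the raphe. The second S100b probe set gave 0.52, -0.29 and 0.23 in the raphe (injured against sham, sham against naive, injured against naive), -0.35 and 0.028 in the cortex (injured against sham, sham against naive), -0.086 at 7 d, -0.84 at 14 d, and 0.87 between the regions. The cause of these changes was not tested.

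Leaving out single samples gave 0 to 1 called genes in injured against naive raphe and between naive regions (1 without raphe injured replicate 1 at 4 h), in the cortex at single times, and in sham against naive raphe (0 without naive replicate 2, 3 or 4 or sham replicate 2 at 28 d). S100b in the cortex ran from 0.41 to 1.03 at 14 d and passed without sham replicate 1 (adjusted p = 0.00497) or injured replicate 1, and ran from -0.88 to -0.35 at 3 months, passing without sham replicate 2 (adjusted p = 0.0293). Some ranges crossed 0. For S100a10 these were injured against naive cortex (-0.055 to 0.37), injured against sham raphe (-0.20 to 0.044) and sham against naive cortex (-0.24 to 0.19). For S100a11 they were injured against sham cortex at 14 d (-0.33 to 0.48), 24 h (-1.33 to 0.34) and 28 d (-0.57 to 0.91). In the raphe S100a11 crossed 0 in injured against naive (-0.18 to 0.042) and in injured against sham at 24 h (-0.12 to 0.82). For S100a8 they were injured against sham raphe (-0.32 to 0.026), the injury difference between the regions (-0.0055 to 0.34) and naive raphe against naive cortex (-0.36 to 0.22).

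Within a region, samples of different groups with the same replicate number did not deviate together (mean correlation -0.002 to 0.023). With the replicate block S100a11 in injured minus sham raphe was 1.24. Raphe and cortex samples of the same group and number were not compared. The labels do not state whether they came from the same rats, and comparisons between regions treated them as separate samples. With 2 sham samples at each time and many S100a11, S100a8 and S100a9 signals under the 40th percentile, differences at single times are the least certain.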
